A study of Mus musculus with 8 samples.

Results

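Spiral ganglion neuron identity and subtype genes were examined in the mouse cochlea by a fixed set of 8 symbols: Pou4f1, Runx1, Lypd1, Isl1, Th, Tubb3, Rbfox3 and Slc17a7. A gene was measured when the platform annotation linked a feature to its symbol alone, and 7 of the 8 met this rule, each with 1 feature. Lypd1, which encodes a membrane-anchored modulator of nicotinic receptors, had 0 features of its own and 2 that carry a second symbol too, and it was not analysed here. The 7 features were part of 23521 features with exactly 1 symbol, out of 41345 in the table.

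The 8 Affymetrix Mouse Gene 2.0 ST arrays came from 4 miR-183/96 KO mice (knockout) and 4 control mice, which the design text calls wild type. All tissue was whole encapsulated cochlea at postnatal day 16 (P16), with the 2 cochleae of an animal pooled as 1 replicate, so bone, marrow, nerve and sensory epithelium were measured together. The way the deletion was made and the strain and sex of the animals were not given in the sources used here. Values are log2 expression made by the authors with RMA, a method meant to correct background, equalise array distributions and summarise the probes of a feature. The array distributions were still unequal in the values used here. Medians ran from 5.0996 in control replicate 4 to 5.2818 in knockout replicate 3. The SD ran from 1.37 in knockout replicate 4 to 1.56 in control replicate 4.

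Spiral ganglion neurons carry signals from hair cells to the brainstem. Type I neurons contact inner hair cells and fall into molecular subtypes that differ in their calcium-binding proteins and transcription factors, whereas the rarer type II neurons contact outer hair cells. The transcription factors Pou4f1 (Brn3a), Isl1 and Runx1 act in sensory neuron specification, and Pou4f1, Runx1 and Lypd1 are known to be enriched in particular type I subtypes. Th (tyrosine hydroxylase) marks mature type II neurons, Tubb3 and Rbfox3 (NeuN) are general neuronal genes, and Slc17a7 encodes the vesicular glutamate transporter VGLUT1.

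The microRNAs targeted in the knockout pair with messages through the seed, bases 2 to 8 of the mature strand. The RefSeq sequences of assembly GRCm38.p6 are shown because the whole comparison rests on their loss, with the seed in capitals; miR-182, a cluster neighbour absent from the genotype label, is added for comparison. All 3 lie on the minus strand of chromosome 6, at chr6:30169711-30169732, chr6:30169506-30169528 and chr6:30165962-30165986.
mmu-miR-183-5p: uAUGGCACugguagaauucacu
mmu-miR-96-5p: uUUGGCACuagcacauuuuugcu
mmu-miR-182-5p: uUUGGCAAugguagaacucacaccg
The seeds of miR-96 and miR-183 shared 6 of 7 bases, differing by U2A counted from the 5′ end. Those of miR-182 and miR-96 also shared 6, differing by A8C. The Mir96 feature read 4.01 to 4.31 in knockout and 5.26 to 6.23 in control arrays, and each array matched its genotype label there. The Mir183 feature was too dim to serve as a check, with a mean of 2.41 at the 3.5th percentile of tested features.

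None of the 7 measured genes passed the adjusted threshold in knockout cochlea (0 of 7; limma with Benjamini-Hochberg adjustment over all 23521 features, threshold 0.05). Over all tested features 3 were called (the targeted Mir96, Calb2 and Snap25), 0.0128% of the total, and all 3 were lower in this fit. That direction varied with the setting: 21 features were called without control replicate 3, 16 of them higher, and 8 with array weights, 3 of them higher. Of the 7 genes, 5 were below 0 and 2 above, where 47.6% of all tested features were below 0, with a median log2 difference of -0.07 (knockout minus control), beside a median of 0.01 over all tested features. One of them, Tubb3, had an unadjusted p under 0.05, a level that 14.3% of all tested features reached. In all 7 genes the values of the groups overlapped, whereas the groups were apart at 5.96% of tested features. In whole tissue, fewer neurons and less RNA per neuron cannot be told apart.

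**Figure D1:**
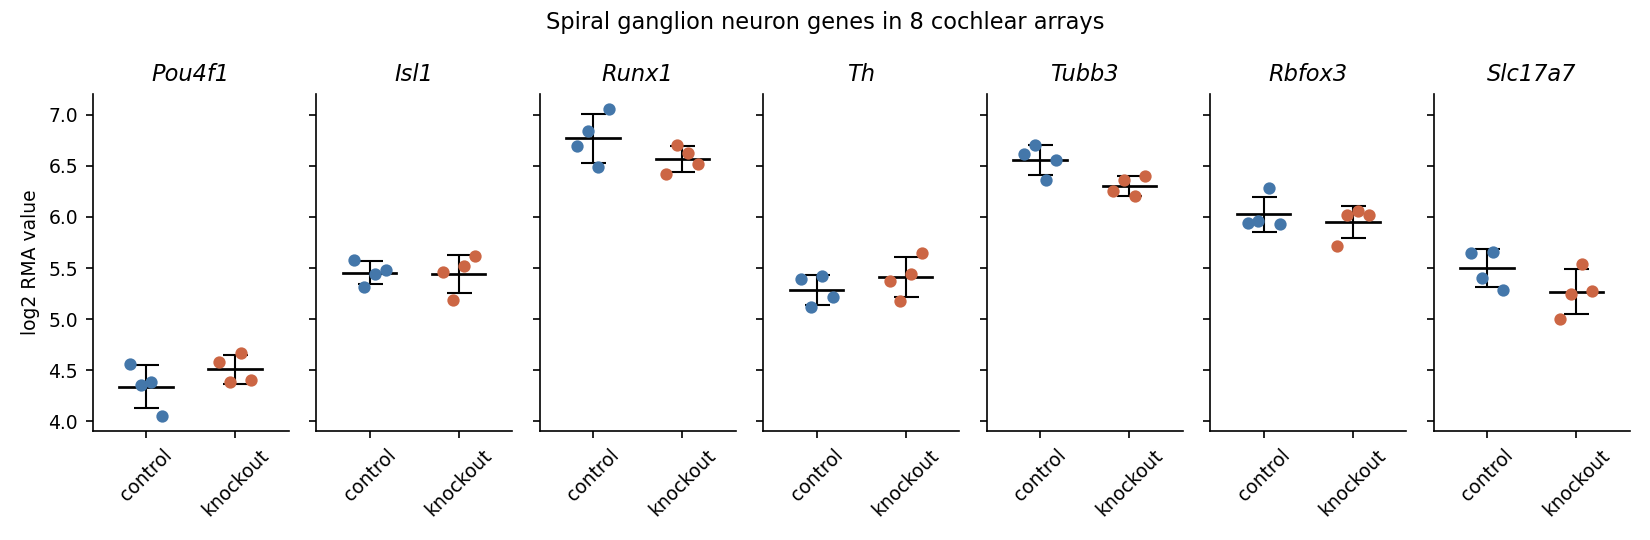
Log2 RMA values (vertical axis) of the 7 measured genes in 4 control (blue) and 4 knockout (orange) arrays, 1 panel a gene; points are animals in replicate order from left to right, the long bar is the mean and the error bar the SD. Control and knockout points overlap in each panel, and the means are farthest apart in Tubb3 (6.56 against 6.30).

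Pou4f1, a POU homeodomain factor of sensory neurons, read 4.58, 4.38, 4.67 and 4.399 in knockout replicates 1 to 4 and 4.56, 4.35, 4.38 and 4.05 in control replicates 1 to 4. The low value was control replicate 4, and the other 7 arrays interleaved. The means were 4.51 ± 0.14 in knockout and 4.34 ± 0.21 in control (SD, n = 4), a difference of 0.17 (SE 0.13, 95% interval -0.12 to 0.46; limma adjusted p = 0.543). The difference ran from 0.08 without control replicate 4 to 0.24 without control replicate 1. Its mean level lay at the 21.7th percentile of tested features.

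Isl1, a LIM homeodomain factor of sensory and motor neurons, read 5.46, 5.18, 5.52 and 5.62 in knockout and 5.58, 5.31, 5.44 and 5.48 in control replicates 1 to 4. Replicate 2 was the lowest array of each group, and knockout replicate 4 the highest of all. With means of 5.45 ± 0.19 in knockout and 5.45 ± 0.11 in control (SD, n = 4), Isl1 differed by -0.0078 (SE 0.12, 95% interval -0.27 to 0.26; limma adjusted p = 0.979). The interval covers knockout levels between 0.829 and 1.19 times those of control, so changes within that span were not resolved.

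Runx1, a Runt domain factor of sensory neuron subtypes and of blood cell formation, read 6.42, 6.71, 6.63 and 6.52 in knockout and 6.69, 6.84, 6.49 and 7.06 in control replicates 1 to 4. Control replicate 4 was the highest array and knockout replicate 1 the lowest, with control replicates 1 and 3 inside the knockout range. Means of 6.57 ± 0.13 and 6.77 ± 0.24 (SD, n = 4) gave a difference of -0.20 (SE 0.13, 95% interval -0.48 to 0.07; limma adjusted p = 0.457).

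Blood and marrow genes were abundant in the same arrays. The mean of 12 measured marrow and blood genes, which include the leukocyte gene Ptprc and the granule genes Mpo and Elane, ran from 7.96 to 8.19 in knockout and from 7.82 to 8.45 in control arrays. Their summed linear level was 6209 to 7256 in knockout and 5640 to 7749 in control. Control replicate 4 was highest both in this list (8.45) and in Runx1, and control replicate 3 was the lowest array of the list (7.82) and the lowest control array in Runx1. With the list as a covariate the Runx1 difference was -0.11, and without control replicate 4 it was also -0.11. Without control replicate 3 it was -0.30 (limma unadjusted p = 0.0304, adjusted p = 0.179). The SD of the log2 values of an array was also highest in control replicate 4 (1.56), and control replicate 3 had the lowest SD of the control arrays (1.41). With that SD as a covariate Runx1 was at 0.13, and the marrow and blood list had a median of 0.29 with 0 of 12 below 0. Marrow content and the SD of an array were thus not separated here, and their parts in the Runx1 values were not tested further.

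Th, the rate-limiting enzyme of catecholamine synthesis, read 5.37, 5.17, 5.44 and 5.65 in knockout and 5.39, 5.12, 5.43 and 5.22 in control replicates 1 to 4. Knockout replicates 3 and 4 stood above all control values, the former by a narrow margin, and knockout replicates 1 and 2 lay within the control range. Th averaged 5.41 ± 0.20 in knockout and 5.29 ± 0.15 in control (SD, n = 4), a difference of 0.12 (SE 0.13, 95% interval -0.15 to 0.40; limma adjusted p = 0.653). The difference ran from 0.04 without knockout replicate 4 to 0.20 without knockout replicate 2. Sympathetic nerve genes, another source of Th message, were measured by 4 features, Dbh, Slc6a2, Hand2 and Npy. These were rather dim, from percentile 24.1 (Dbh) to percentile 50.1 (Npy) of mean level, and the share of array background in them is unknown. Their mean level was 5.05 to 5.23 in knockout and 4.93 to 5.19 in control, their summed level was 135 to 156 and 127 to 147, and their part in Th was not tested.

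Tubb3, the neuronal beta-III tubulin, read 6.25, 6.36, 6.20 and 6.41 in knockout and 6.62, 6.71, 6.36 and 6.56 in control replicates 1 to 4. Control replicates 1, 2 and 4 stood above all knockout arrays, while control replicate 3 lay between knockout values. The means were 6.30 ± 0.09 in knockout and 6.56 ± 0.15 in control (SD, n = 4), a difference of -0.26 (SE 0.11, 95% interval -0.49 to -0.02) that did not pass (limma unadjusted p = 0.0349, adjusted p = 0.326). In rank by unadjusted p it was number 2515 of the 23521 features. The difference was -0.32 without control replicate 3 (limma adjusted p = 0.125) and -0.19 after cyclic loess normalization (limma adjusted p = 0.531), and over all alternatives the adjusted p ran from 0.125 to 0.968.

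Rbfox3, the nuclear splicing factor of postmitotic neurons, read 5.72, 6.02, 6.06 and 6.02 in knockout and 5.94, 5.96, 6.28 and 5.93 in control replicates 1 to 4. One array stood apart in each group, low in knockout replicate 1 and high in control replicate 3, and the other 6 arrays lay between 5.93 and 6.06. As deposited, the difference was -0.07 (SE 0.12, 95% interval -0.34 to 0.19; limma adjusted p = 0.782), from means of 5.95 ± 0.16 and 6.03 ± 0.17 (SD, n = 4). It was 0.0038 without knockout replicate 1, 0.01 without control replicate 3 and 0.09 without both.

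Slc17a7, the transporter that loads glutamate into synaptic vesicles, read 5.003, 5.25, 5.54 and 5.28 in knockout and 5.65, 5.40, 5.66 and 5.28 in control replicates 1 to 4. Knockout replicate 1 was the lowest array, and knockout replicate 3 lay above 2 control arrays. The means of 5.27 ± 0.22 and 5.50 ± 0.19 (SD, n = 4) differed by -0.23 (SE 0.14, 95% interval -0.53 to 0.07; limma adjusted p = 0.438). The difference was -0.30 after cyclic loess. It ran from -0.32 with knockout replicate 3 left out to -0.14 with knockout replicate 1 left out, and it was -0.09 without knockout replicate 1 and control replicate 3 together.

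**Figure D2:**
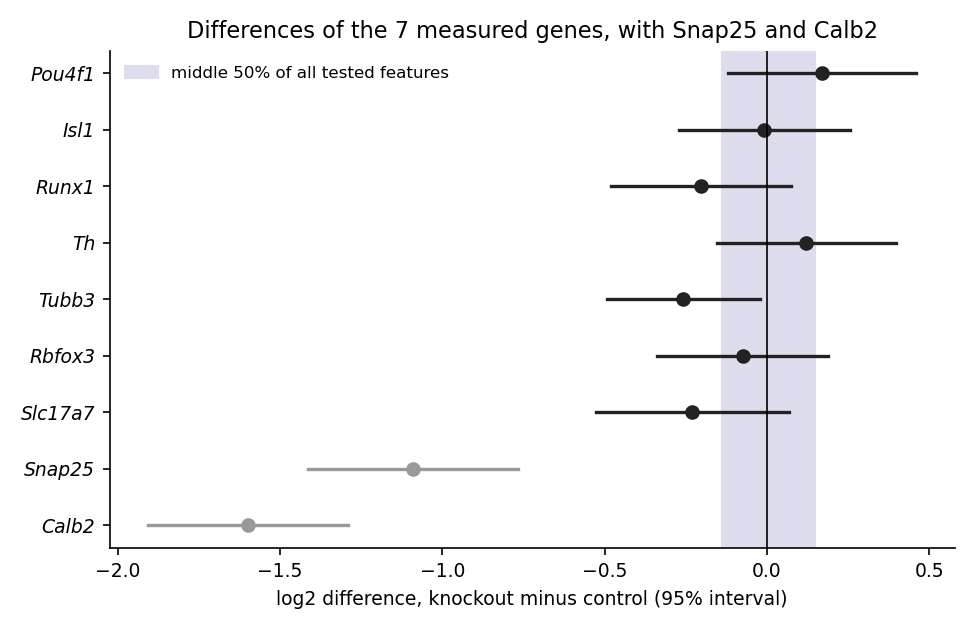
Log2 difference, knockout minus control (horizontal axis), with its 95% interval from limma for the 7 measured genes (black) and, for scale, Snap25 and Calb2 (grey); the shaded band holds the middle 50% of all tested features. The 7 points lie between -0.26 and 0.17, and Snap25 and Calb2 lie at -1.09 and -1.60.

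These intervals come from the fit without covariates to whole cochlea, and they do not bound a change within the neurons. The lowest lower bound was that of Slc17a7 at -0.53, which is 1.44-fold lower in knockout, and the highest upper bound was that of Pou4f1 at 0.46, which is 1.38-fold higher. Such bounds depend on the setting. With the SD of each array's log2 values as a covariate, Slc17a7 was at -0.45 (SE 0.18). Snap25, a presynaptic fusion protein, and Calb2, the calretinin of inner hair cells and of a type I subtype, were the called features among the neuronal genes examined, at -1.09 (95% interval -1.41 to -0.77) and -1.60 (95% interval -1.91 to -1.29). Both were chosen for display with their fall known. Snap25 did not pass after repeated quantile normalization or cyclic loess, and neither gene passed with the SD covariate. Several other settings, given at the end, called only 1 gene of the fixed lists.

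Differences between the groups followed the mean level of a feature over the whole table. When features were ordered by mean level into 10 deciles, the median difference was 0.13 in decile 1 and -0.21 in decile 10, and the SD of the log2 values of an array was 1.40 ± 0.03 in knockout and 1.49 ± 0.06 in control (SD, n = 4). Pou4f1 lay in decile 3, whose median was 0.11, and Tubb3 and Runx1 in decile 9, whose median was -0.16. Slc17a7 lay at percentile 4.72 of the differences in its decile, whose median was 0.06, while the other 6 genes lay between percentiles 24.4 and 66.0 of theirs. With the signal range of each array as a covariate, Pou4f1 read -0.0040, Runx1 0.13 and Th -0.13, each with the sign turned, and Tubb3 read -0.13 and Slc17a7 -0.45 (limma adjusted p = 0.815 to 0.999 over the 7 genes). That covariate is computed from the same features and differs between the groups, so it removes part of any genotype difference too.

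**Figure D3:**
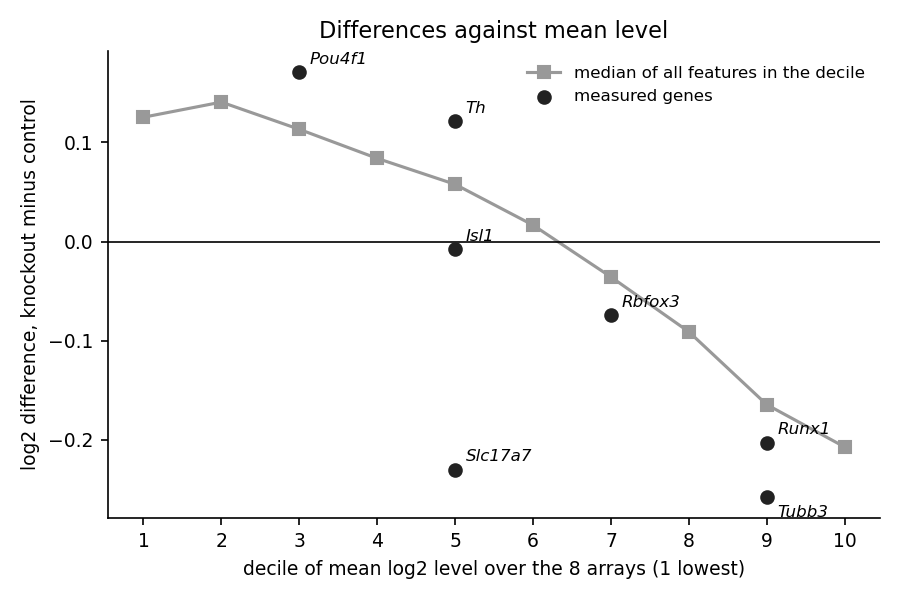
Log2 difference, knockout minus control (vertical axis), against the decile of mean level over the 8 arrays (horizontal axis); squares are medians of all tested features of a decile and circles the 7 measured genes. Medians fall along the axis, 0.13 at decile 1 and -0.21 at decile 10, and Slc17a7 at -0.23 is the gene farthest from the median of its decile (0.06).

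No detection call accompanied the values, so the share of array background in each gene is unknown. Features of 1091 olfactory receptor genes, which are chiefly used in the nose, had a median level of 3.32. Of these features 22.6% read above Pou4f1, 6.23% above Th, 5.77% above Slc17a7 and 5.22% above Isl1, and 0.275% to 1.65% above Runx1, Tubb3 and Rbfox3. Probes differ in brightness, so these shares only place each gene among dim features.

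Other genes of the same roles were read from fixed lists. Of 13 further neuronal transcription factors measured, 0 passed; 8 were below 0 and the median was -0.06. Esrrg, an orphan nuclear receptor, was at 0.35, Cbfb, the partner that binds DNA with Runx1, at -0.38 and Eya1 at -0.24, and these had the smallest unadjusted p (limma adjusted p = 0.301 to 0.322). After cyclic loess Esrrg was at 0.35, Cbfb at -0.23 and Eya1 at -0.08. Gata3 and Neurod1, which act early in these neurons, were at 0.19 and -0.18.

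Among 14 type I subtype genes, Calb2 passed and was lower, 9 were below 0 and the median was -0.11. Pcp4 and Calb1, both of calcium signalling, were at -1.04 and -1.08 without passing (limma adjusted p = 0.212 and 0.226). The others included Grm8, a glutamate receptor, at 0.15, Chst2, a sulfotransferase, at -0.09 and Lrrc52 at 0.03. Ttn was at -0.52 with an SD of 1.15 among control arrays. Titin is also a muscle protein, and the mean of 9 muscle genes ranged from 5.40 to 6.71 in knockout and from 6.45 to 8.59 in control arrays (summed level 437 to 1062 and 908 to 4259). Its part in Ttn was not tested.

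Type II neuron genes did not pass (0 of 10, median 0.03, 4 below 0). Prph, the intermediate filament peripherin, was at 0.12, Ngfr at -0.19 and Smad3 at -0.30 (limma adjusted p = 0.301 for Smad3). In the catecholamine pathway 0 of 12 measured genes passed and 3 were below 0, with a median of 0.07. The noradrenaline transporter gene Slc6a2 was at 0.27, the vesicular monoamine transporter gene Slc18a2 at 0.23 and the degrading enzyme gene Maoa at -0.22, beside Th at 0.12. The median of this list was -0.01 after centring the arrays on their medians, beside -0.07 over all tested features in that setting. That of the type II list was -0.07 after cyclic loess, beside -0.03 over all tested features. Neither median kept its sign across scalings. The catecholamine median stayed above that of all tested features in each, by little with the signal range covariate (-0.0011 beside -0.0039). Most genes of this list were dim, such as Dbh at percentile 24.1 of mean level and Slc18a2 at percentile 43.1. These 2 lay in deciles 3 and 5, whose medians over all tested features were 0.11 and 0.06, so the list median was near that of features of like level.

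General neuronal genes beside Tubb3 and Rbfox3 had 20 of 24 measured members below 0 and a median of -0.19, and Snap25 passed. Groups did not overlap at 9 of the 24, against 0 of the 7 genes and 5.96% of all tested features; the difference between the lists was not tested. The neurofilament genes Nefl and Nefm were at -0.91 and -0.73, whereas Mapt and Elavl3 were at -0.02 and 0.0084. Across median-centring, repeated quantile normalization and cyclic loess the median ran from -0.27 to -0.26, with 20 to 22 members below 0. In these settings the median of all tested features ran from -0.07 to -0.03, beside 0.01 as deposited. Median-centring lowers every difference by the same amount. With the signal range covariate the list median was -0.23, with 22 members below 0 and 0 called, beside -0.0039 over all tested features. As deposited, 10 of the 24 were lower with a limma unadjusted p under 0.05, a level that 14.3% of all tested features reached in either direction.

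Schwann cell genes lay on the same side as the general neuronal genes, with 5 of 6 below 0 and a median of -0.23, and 0 passed. Their mean level was 6.58 to 6.91 in knockout and 6.91 to 7.15 in control arrays (summed level 990 to 1466 and 1448 to 1694). Single Schwann cell genes ranged in mean level from Mag (-0.35), at the 35.7th percentile, to Pmp22 (-0.22), at the 99.0th. S100b was lowest at -0.59 (limma unadjusted p = 0.0064, adjusted p = 0.301), and Sox10, at 0.04, was the 1 gene above 0. Mbp (-0.25) lay in decile 9 of mean level and Pmp22 and S100b in decile 10, whose medians over all tested features were -0.16 and -0.21. Mag lay in decile 4, whose median was 0.08. Hair cell genes, 10 measured, had a median of -0.0048 and a mean level of 5.33 to 5.47 in knockout and 5.28 to 5.47 in control (summed level 438 to 482 and 439 to 494). Brain genes, which could enter with the nerve stump, had 3 of 9 below 0, a median of 0.11 and a mean level of 5.08 to 5.27 in knockout and 5.07 to 5.22 in control (summed level 357 to 411 and 348 to 420). Gabra6, a cerebellar granule cell gene, was dim, at 2.81 ± 0.18 and 2.55 ± 0.25 (SD, n = 4). All 7 bone genes were below 0, with a median of -0.23 and a summed level of 6324 to 8531 in knockout and 7947 to 9712 in control. These 7 lay in decile 10 of mean level, where the median difference over all tested features was -0.21. All 9 muscle genes were below 0 too, with a median of -0.90, and 0 passed. With the muscle list as a covariate Tubb3 was at -0.19 (SE 0.14, limma unadjusted p = 0.199, adjusted p = 0.725). The muscle list itself differed between the groups, with a mean of 6.25 in knockout and 7.19 in control. This covariate therefore removes part of any genotype difference too, and the part of muscle in Tubb3 was not tested. The part of the Schwann cell, bone and brain lists in the neuronal values was not tested.

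Genes of glutamate transmission had 10 of 13 below 0, a median of -0.08 and 0 calls. Vamp1, a vesicle fusion protein, was at -0.39, the glutamate transporter genes Slc1a1 and Slc1a3 at 0.44 and -0.29 (limma adjusted p = 0.301 to 0.305), and the AMPA receptor subunit genes Gria3 and Gria4 at -0.22 and -0.20.

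Close relatives of the measured genes did not pass either (0 of 16). Slc17a6 and Slc17a8, the transporters VGLUT2 and VGLUT3, were at -0.16 and -0.05 beside Slc17a7 at -0.23. Pou4f3, the hair cell relative of Pou4f1, was at -0.10. Groups did not overlap at 3 of the 16 (Pou4f3, Lypd6b and Tubb2a), beside 5.96% of all tested features. Isl2 was at 0.25, Runx3 at 0.05, Rbfox1 at 0.06 and Rbfox2 at -0.12. Of the tubulin genes, Tubb2a was at -0.24, Tubb5 at -0.26, Tubb4a at -0.26, Tubb1 at -0.13, Tubb4b at -0.10, Tubb6 at -0.04 and Tubb2b at -0.03, all below 0 like Tubb3. Tubb6 was at 0.03 after cyclic loess, and Tubb1, Tubb4b and Tubb6 were at 0.38, 0.27 and 0.21 with the signal range covariate, so the shared sign depends on the scaling. The Lypd1 relatives Lypd6 and Lypd6b were at 0.17 and 0.31.

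**Figure D4:**
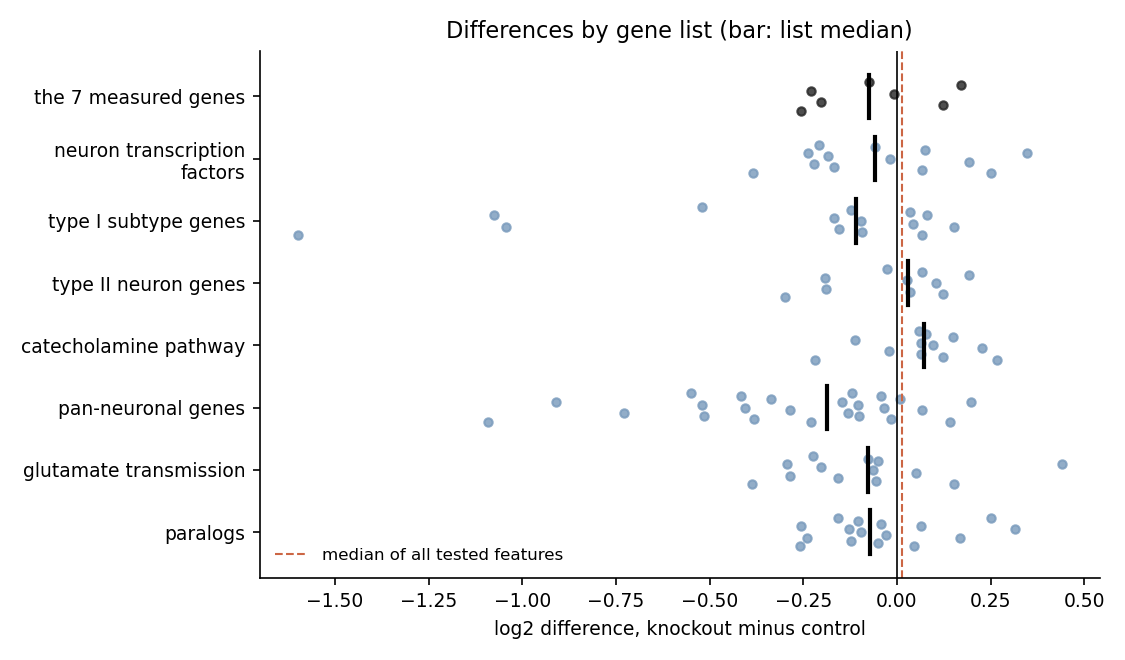
Log2 difference, knockout minus control (horizontal axis), of each measured gene of the 7 neuron genes (black) and of 7 fixed lists (blue); thick bars are list medians and the dashed line is the median of all tested features (0.01). List medians run from -0.19 for the general neuronal genes to 0.07 for the catecholamine pathway.

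The 7 genes did not vary as 1 block between animals. After subtraction of the group means, Pearson's r over the 8 arrays, given as a description, ran from -0.61 (Pou4f1 with Runx1) to 0.87 (Isl1 with Th) over the 21 pairs, with a median of -0.05 and 11 pairs below 0. Rbfox3 and Slc17a7 followed at 0.73. Among 11279 genes at or above the median level, those most like Isl1 were Cartpt and Kcnt1 (both 0.97), and those most like Th were Ddx18 and Mroh3 (both 0.98). The nearest were Tgm5 (0.97) and Khk (0.95) for Pou4f1, Sars and Cep120 (both 0.99) for Runx1, C1qbp and Ebpl (both 0.98) for Tubb3, Tmem51os1 (0.97) and Strc (0.96) for Rbfox3, and Spns3 and Gng4 (both 0.98) for Slc17a7. These are the highest of many values over only 8 arrays that also differ in signal range, and they say nothing of shared control.

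The promoters of Th and Isl1 are shown because these were the closest pair, chosen after the values were seen. Each run is the 250 bases before the RefSeq start site in GRCm38.p6, on the minus strand, at chr7:142899996-142900245 for Th and chr13:116309689-116309938 for Isl1. Capitals mark the cyclic AMP response element TGACGTCA in Th and its shorter form TGACGTC in Isl1, both searched on both strands, with the shorter form contained in the longer.
Th: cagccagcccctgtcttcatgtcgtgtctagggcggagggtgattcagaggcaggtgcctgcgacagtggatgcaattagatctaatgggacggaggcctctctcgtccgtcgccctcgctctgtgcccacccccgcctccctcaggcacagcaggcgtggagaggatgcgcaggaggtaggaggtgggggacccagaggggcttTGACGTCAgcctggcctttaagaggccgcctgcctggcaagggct
Isl1: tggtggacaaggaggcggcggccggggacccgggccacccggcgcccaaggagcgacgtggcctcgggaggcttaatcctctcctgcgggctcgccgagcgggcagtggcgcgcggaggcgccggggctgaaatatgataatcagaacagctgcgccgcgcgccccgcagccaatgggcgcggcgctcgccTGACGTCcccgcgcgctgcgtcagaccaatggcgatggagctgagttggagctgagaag
In Th the element spanned bases 45 to 38 before the start, and in Isl1 the shorter form spanned bases 59 to 53. Of 32851 promoter windows of that length, 1.55% held the longer and 2.78% the shorter form. All 7 measured genes had a window, and only Th held the longer form. In the other 5 genes these letters were not found, as in most windows, so their absence there sets no contrast with the pair. The match is a description of sequence, and no binding was measured.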

How the data were processed

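Gene expression was measured on 8 Affymetrix arrays of P16 cochlea, 4 knockout and 4 control. Per the labels, the deposited values are log2 expression that the authors computed by gene-level RMA, and the submitters' processing notes name Affymetrix Expression Console. Its version, the annotation release and which arrays were normalized as 1 set were not given in the sources used here. Precision is limited by the number of arrays. Nothing beyond the animal of origin separates replicates in the labels. RMA as a rule compresses differences of dim features. Features with exactly 1 symbol (23521, of which 23328 matched the RefSeq table by gene identifier) were tested, 1814 with several symbols and 16010 with none were not. A gene with several features was represented by the one with the highest mean.

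The groups were compared with limma 3.58.1 in R 4.3.3 (lmFit, eBayes with an intensity trend, genotype only), with Benjamini-Hochberg adjustment over all tested features and a threshold of 0.05. Intervals are 95%. On simulated data for this comparison, over 23521 features, 100% of 50 features changed by 1 were called, 60% of 50 changed by 0.6 and 2% of 50 changed by 0.3. The simulated noise was normal and independent between features, so these shares need not hold for the real arrays. There Calb1 at -1.08 and Pcp4 at -1.04 did not pass. Members and lists were chosen with earlier results of these data known. Named were the 7 genes, list members past the threshold, up to 3 of each list with the smallest p, all relatives, and for each gene the 2 most alike; other list members were added as background after their values were seen. Alternatives were the replicate block, eBayes settings, feature filters, 3 normalizations, array weights, covariates and leaving out arrays; leaving out 2 arrays together was added after seeing the data.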

Additional observations from a re-analysis of the deposited data

Results flagged for a closer look

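Rbfox3 stood out in both groups for 1 array far from the other 3. Knockout replicate 1 read 5.72 against 6.02 to 6.06 in the other knockout arrays, and control replicate 3 read 6.28 against 5.93 to 5.96 in the other control arrays. In both cases the gap to the nearest array, as a share of the group's range, was above Dixon's critical value of 0.829, at 0.884 and 0.915. Chance gives about 1 such group in 20, and 14 groups were examined. Knockout replicate 1 was also the lowest array in Slc17a7 (5.003) and control replicate 3 the highest (5.66), though not beyond the critical value.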

How the results depend on the processing

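Across 21 alternatives 0 of the 7 genes were called, Pou4f1 being left out where a mean level of at least 5 was required. Tubb3 and Slc17a7 stayed below 0 throughout, from -0.34 to -0.13 and from -0.45 to -0.09, with an unadjusted p under 0.05 in 12 and 5 alternatives. Signs turned for Isl1 with array weights (0.016) and for Pou4f1 (-0.0040), Runx1 (0.13) and Th (-0.13) with the signal range covariate. Leaving out 1 array gave -0.066 to 0.080 for Isl1 and -0.11 to 0.01 for Rbfox3, which read 0.089 without both knockout replicate 1 and control replicate 3. Over all features 3 calls became 1 with all features of the table, 8 with array weights, 1 with the signal range covariate, 1 with the muscle covariate, and 1 to 21 without 1 array (1 without control replicate 1, 21 without control replicate 3, 16 of these higher). Of the calls, 3 were higher with array weights and 1 each with the replicate block, with the marrow and blood covariate and without both of those arrays. Of the fixed lists 2 genes were called, and 0 with the signal range covariate. That count was 1 with the replicate block, without the trend, with robust eBayes, with all features of the table, after repeated quantile normalization, after cyclic loess, with the muscle covariate and without both of those arrays, and 1 to 2 without 1 array. The cause of these shifts was not tested. Same-numbered arrays did not pair: their deviations correlated at 0.06, 0.21, 0.21 and -0.29, 1 of 4 best with its own number, and the fit with the replicate block called 3 features, 1 of them higher, and 0 of the 7 genes. The mean of all features of a gene changes nothing here, since each gene has 1.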
